A study of Homo sapiens with 6 samples.

Results

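The genes described here are 39 genes of the NRF2 antioxidant response, glutathione metabolism and ferroptosis, out of 27745 genes in the count table. They were chosen by name and not by their levels, although earlier results of these data were known when they were chosen. All 39 were found, and all 39 were among the 15372 genes left after a filter on low counts. The RNA-seq samples are MDA-MB231 cells (also written MDA-MB-231), an established line of triple-negative breast cancer with mesenchymal-like features, to which a lentivirus had delivered a short hairpin RNA (shRNA). The control shRNA was sh-TRC (genotype given as knockdown TRC, samples CTR1 and CTR2). The lncRNA MIR100HG was targeted by sh-MIR100HG-1 (KD1-1 and KD1-2) and by sh-MIR100HG-2 (KD2-1 and KD2-2), both given as knockdown MIR100HG. Each group had 2 samples, which the study calls biological replicates, and the controls also carried a lentivirus and an shRNA. All 6 samples come from 1 cell line, and uninfected cells are not analysed here.

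NRF2, encoded by NFE2L2, is a transcription factor that KEAP1 hands over for degradation. When oxidants or electrophiles modify KEAP1, NRF2 accumulates and binds antioxidant response elements near genes for cystine uptake, glutathione synthesis, thioredoxin, NADPH supply, quinone and haem breakdown and iron storage. Ferroptosis is a form of cell death driven by iron-dependent peroxidation of membrane lipids, which GPX4 counters with glutathione, and mesenchymal-like breast cancer cells are known to be sensitive to it.

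The samples held between 43804736 and 64588388 counts, of which the 39 genes took 0.670 to 0.836%. MIR100HG was at 41.9 and 58.5 CPM (counts scaled by library size and TMM factor) in the controls and between 10.4 and 16.6 CPM in the 4 knockdown samples. The groups did not overlap for MIR100HG (log2FC -1.86, SE 0.25, adjusted p = 0.381 by the quasi-likelihood test of edgeR). Over all tested genes outside the 39, samples of a group were not each other's nearest. CTR1 lay closest to KD1-1, CTR2 and KD2-1 lay closest to each other, KD1-2 lay closest to CTR1, and KD2-2 lay closest to KD1-2. Genes of the mitochondrial genome took 3.46 and 2.41% of counts in the controls, 3.30 and 3.38% with sh-MIR100HG-1, and 1.52 and 1.84% with sh-MIR100HG-2. The mesenchymal-like markers VIM, CD44, AXL and CAV1 summed to 3950 to 5000 CPM. The 5 luminal markers summed to 83.5 to 133 CPM, most of it ERBB2, while PGR was at or near 0. ESR1 had 2.38 CPM in CTR2 and 2.79 CPM in KD1-1, against 0.12 to 0.59 CPM in the other samples. FOXA1 had 1.22 CPM in both CTR2 and KD1-1, against 0.0236 to 0.16 CPM in the other samples. The epithelial marker CDH1 was also highest in CTR2 and KD1-1 (7.05 and 5.0 CPM), while the epithelial markers EPCAM and ELF3 were not. The 3 epithelial markers summed to 18.5 to 79.4 CPM, the 3 fibroblast markers to 9.33 to 19.8 CPM and the 3 blood cell markers to 163 to 254 CPM, nearly all of it CD68, with CD3E and PTPRC below 1 CPM. The part of these differences between samples in the results below was not tested.

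In the control cells the 39 genes spanned a wide range of levels per length of exon (RPKM, here CPM per kilobase of exon). FTL, the ferritin light chain that stores iron, had the highest level at 1030 ± 150 RPKM (SD, n = 2). The peroxidase GPX1 (309 ± 74.5 RPKM, SD, n = 2) and thioredoxin TXN (296 ± 29.6 RPKM, SD, n = 2) followed and differed by less than their spread. PRDX5, GPX4, GSTP1 and PRDX1 also lay above 100 RPKM on average. At the low end were AKR1C1 at 0.503 ± 0.353 RPKM (SD, n = 2), the glutamate-cysteine ligase subunit GCLC at 3.36 ± 0.474 RPKM (SD, n = 2) and sulfiredoxin SRXN1 at 3.71 ± 1.14 RPKM (SD, n = 2). Of the SRXN1 exons 85.0% also belong to another annotated gene on the same strand, so its level per length is uncertain. SLC7A11, the cystine transporter, was at 6.99 ± 4.97 RPKM (SD, n = 2), with a wide spread between the controls relative to its mean, as for AKR1C1.

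**Figure D1:**
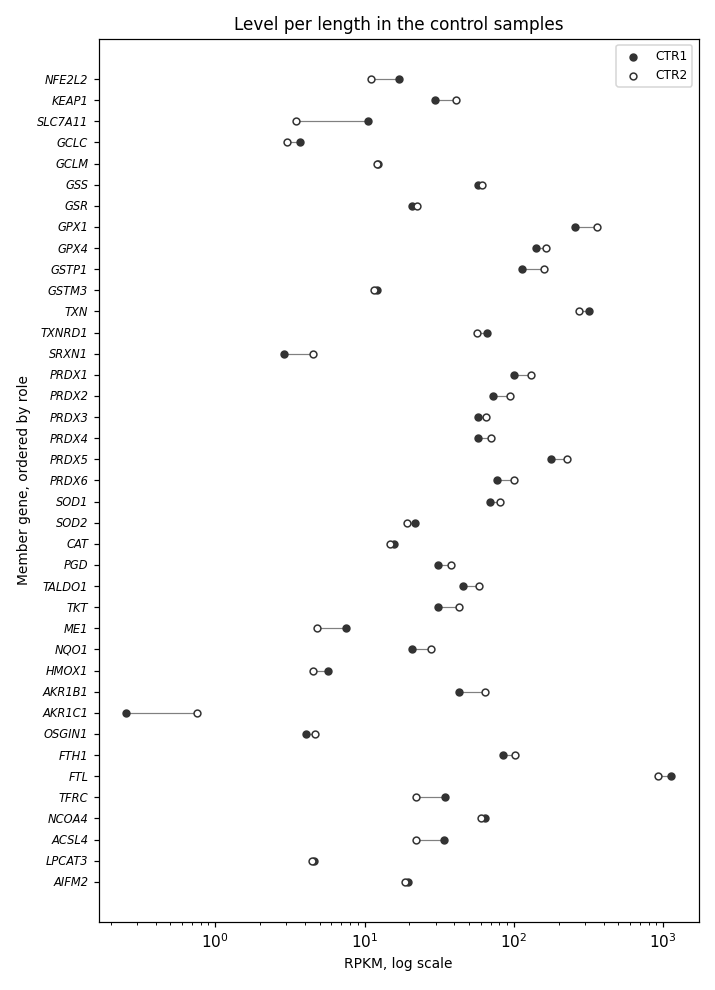
Level of each of the 39 genes per length (RPKM, log scale) in CTR1 (filled) and CTR2 (open), ordered by role. FTL lies near 1030 RPKM and AKR1C1 near 0.503 RPKM, and SLC7A11 and AKR1C1 show the widest gaps between the control samples.

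The core of the antioxidant response element to which NRF2 binds is TGACNNNGC. These letters were searched on both strands from 250 bases before to 50 bases after the gene starts of the RefSeq promoter table (GRCh38.p14), which held 31 of the 39 genes. HMOX1, GSS, GSR, SLC7A11, PRDX1, PRDX6, SOD1 and FTH1 had no entry. The motif was found in 6 of the 31 promoters (19.4%), in 13.6% of all 27305 promoters of the table and in 15% of the 11724 promoters of tested genes. Of the 13 classical NRF2 targets with an entry it was found in GCLM, TXNRD1, PGD and ME1, and of the other 18 genes in GSTP1 and AIFM2. Sequence further from the gene start was not searched, so a gene without a match here may hold the element elsewhere. Below are 30 bases around 1 match in each of 5 genes, to show how the element varies at its free positions, with the match in capitals and each sequence read along the strand that holds it. The letters TGACTCA within 3 of these matches are also the motif of AP-1 factors. The 30-base stretches lie on GRCh38.p14 at chr1:93909445-93909474 (plus strand, GCLM), chr11:67583736-67583765 (plus, GSTP1), chr12:104215670-104215699 (plus, TXNRD1), chr6:83431169-83431198 (minus, ME1) and chr10:70132828-70132857 (plus, AIFM2).
GCLM: ctggaagacaaTGACTAAGCagaaatcgta
GSTP1: gccggcgccgTGACTCAGCactggggcgga
TXNRD1: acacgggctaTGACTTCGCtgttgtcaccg
ME1: tctcctgccaTGACTCAGCgcttctcgcag
AIFM2: cgggcggggcgTGACTCAGCactcgtgctg
GSTP1, ME1 and AIFM2 hold the same 9 letters, and GCLM and TXNRD1 differ from them at the free positions. The match in PGD and a further match in each of TXNRD1 and ME1 are not shown, and none of these holds TGACTCA. Such a match is a description of the sequence and not a measured binding site.

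After knockdown of MIR100HG, the 39 genes showed small differences that were not in 1 direction, and none passed the test. With the mean of both shRNAs set against control, 25 of the 39 had a positive log2FC, with a median of 0.12, where all genes tested had a median of -0.04 and 45.6% positive values. The values ran from -0.59 for SLC7A11 to 0.82 for HMOX1. No gene of the 39 had an adjusted p at or below 0.05 in any comparison by edgeR's quasi-likelihood test, and 0% of all genes did in each of the 4 comparisons. DESeq2's Wald test called 1 of the 39 between the shRNAs, SLC7A11 (adjusted p = 0.0497), where it called 103 of all genes tested (0.67%). It called 0 of the 39 when both shRNAs together, sh-MIR100HG-1 alone or sh-MIR100HG-2 alone were set against control, where it called 0.839%, 0.423% and 1.07% of all genes. In cells in bulk, a change in RNA per cell and a change in the makeup of the culture cannot be told apart. Below, an unadjusted p under 0.05 serves only as a description.

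At that unadjusted level, 1 of the 39 differed between both shRNAs together and control (7.68% of all genes tested). For sh-MIR100HG-1 against control it was 2 of 39 (6.87% of all genes), and for sh-MIR100HG-2 against control 2 of 39 (8.86%). These comparisons share their control samples. Between the shRNAs, 5 of 39 differed (9.45% of all genes), namely SOD2, AKR1C1 and OSGIN1 higher and SLC7A11 and ACSL4 lower with sh-MIR100HG-2. By the samples themselves, both sh-MIR100HG-2 samples were above both sh-MIR100HG-1 samples for 12 of the 39 (20.6% of all genes) and below both for 7 (23.3% of all genes). All 4 knockdown samples were above both controls for 1 gene, HMOX1 (8.4% of all genes), and below both controls for 0 of the 39 (9.08% of all genes). With only CTR2 as control the 4 knockdown samples lay beyond it for 16 of the 39 (40% of all genes), and with only CTR1 for 9 of the 39 (38.9% of all genes). The share of all genes for which a single shRNA lay beyond both controls was not determined. Such cases are given below only as a description of the samples.

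**Figure D2:**
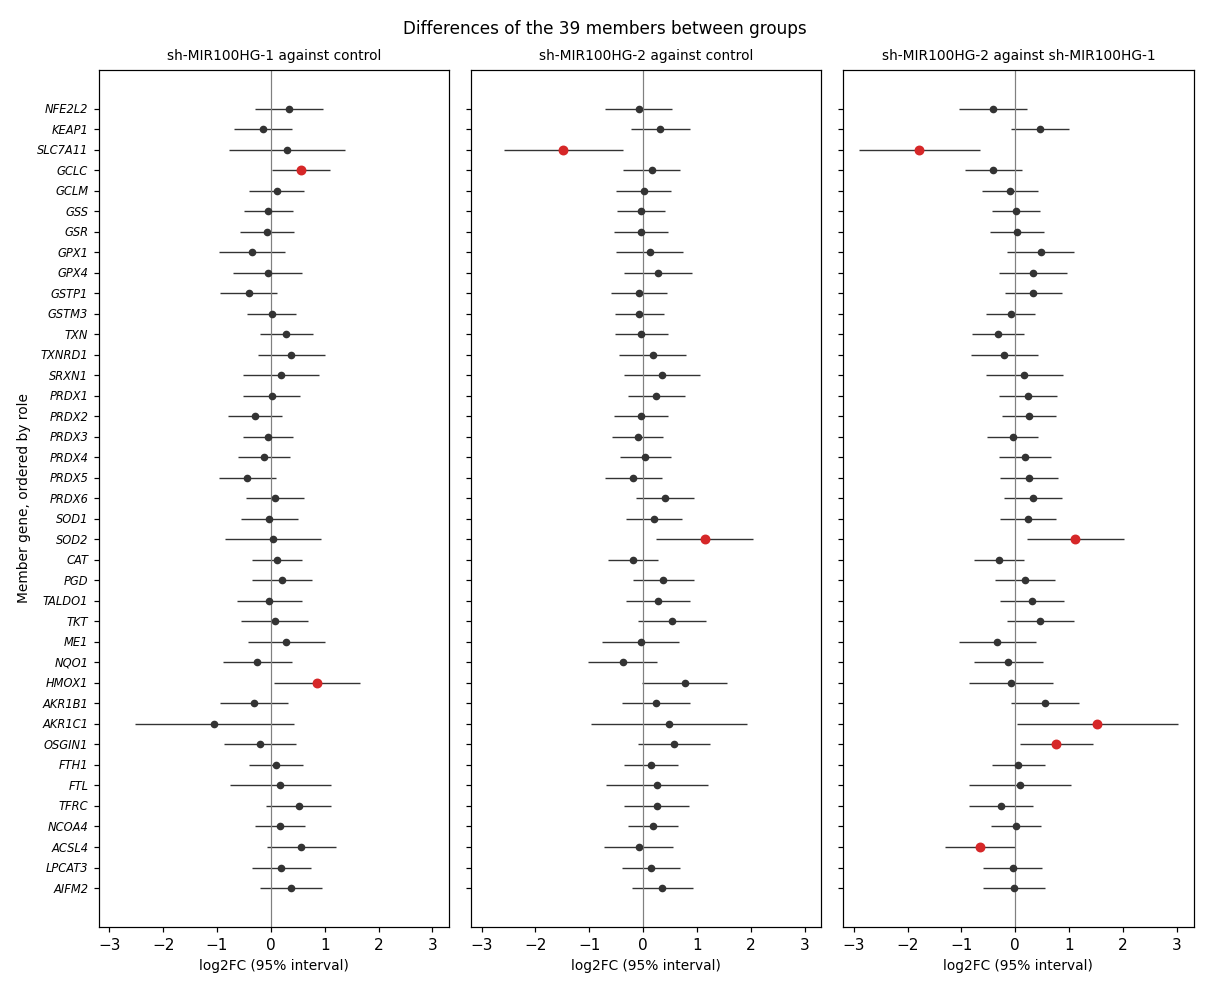
Log2FC with 95% intervals from edgeR's quasi-likelihood fit for the 39 genes, ordered by role, in 3 comparisons; red points are those whose interval leaves out 0. Red points are GCLC and HMOX1 for sh-MIR100HG-1, SLC7A11 and SOD2 for sh-MIR100HG-2, and SLC7A11, SOD2, AKR1C1, OSGIN1 and ACSL4 between the shRNAs; none has an adjusted p at or below 0.05.

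The control samples differed from each other for many of these genes. The log2 gap between CTR1 and CTR2 was larger than the log2FC of the knockdown for 30 of the 39 genes (76.9%), against 57.7% of all genes tested. The median gap between the controls was 0.30 and the median size of the knockdown log2FC 0.17. The gap was widest for SLC7A11, which was lower in CTR2 by a log2 difference of -1.59, and for AKR1C1, which was higher in CTR2 by 1.52. KD2-2 was the highest of the 6 samples for 17 of the 39 genes (20.8% of all genes tested had their highest value there).

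**Figure D3:**
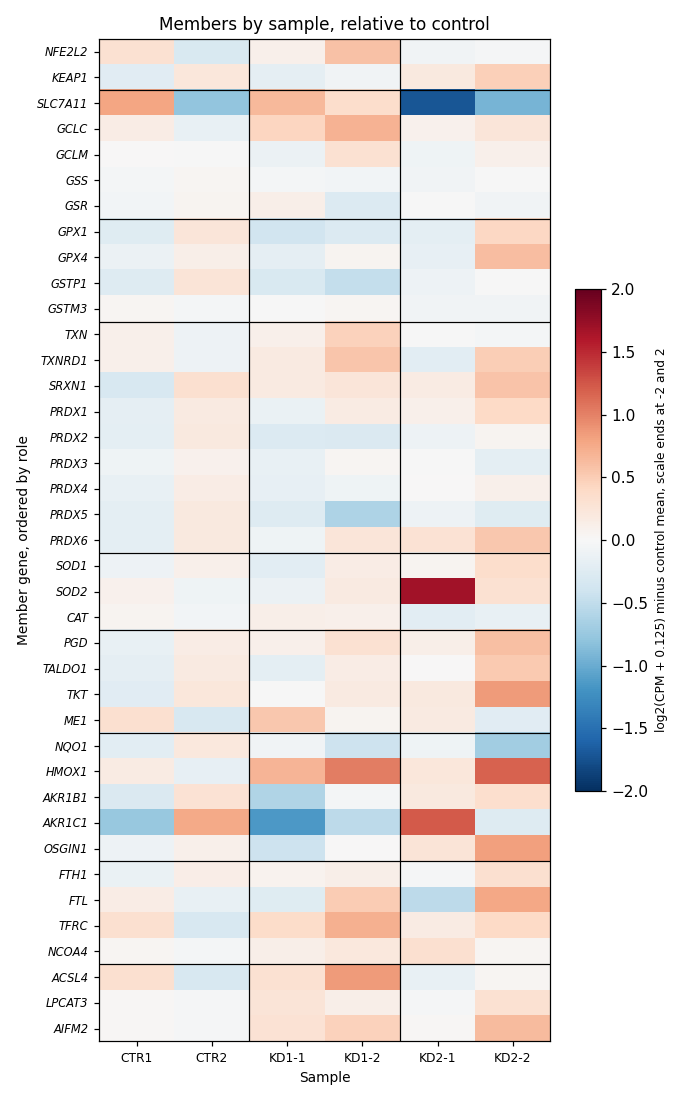
Level of each of the 39 genes in each sample as log2(CPM + 0.125) minus the mean of the controls; lines separate roles and groups, and the color scale ends at -2 and 2. SLC7A11 is lowest in KD2-1 and below the control mean in CTR2 as well, SOD2 stands out in KD2-1, and HMOX1 is above both controls in all 4 knockdown samples.

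NFE2L2, which encodes NRF2, had 102 and 65.9 CPM in the controls, 88.1 and 124 CPM with sh-MIR100HG-1, and 77.6 and 80.6 CPM with sh-MIR100HG-2. KEAP1, its repressor, had 111 and 154 CPM in the controls, 116 and 125 CPM with sh-MIR100HG-1, and 150 and 182 CPM with sh-MIR100HG-2. For both genes the knockdown samples overlapped the controls. The log2FC of the knockdown was 0.13 (95% interval -0.42 to 0.67) for NFE2L2 and 0.09 (-0.38 to 0.56) for KEAP1. Between the shRNAs, both sh-MIR100HG-2 samples were lower for NFE2L2 and higher for KEAP1, with log2FC of -0.42 and 0.46 whose intervals include 0.

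SLC7A11, the transporter that exchanges cystine for glutamate and so feeds glutathione synthesis, lies on chromosome 4 of GRCh37 from 139085251 to 139163503 on the minus strand and varied most among the genes of this supply. It had 101 CPM in CTR1 and 33.6 CPM in CTR2. With sh-MIR100HG-1 it had 91.7 and 74.2 CPM, within the range of the controls. With sh-MIR100HG-2 it had 17.8 and 30.5 CPM, below all 4 other samples. The log2FC of sh-MIR100HG-2 was -1.48 against control (SE 0.48, 95% interval -2.59 to -0.37) and an unadjusted p of 0.0149 (adjusted p = 0.508) in edgeR's quasi-likelihood test. Against sh-MIR100HG-1 it was -1.78 (SE 0.49, 95% interval -2.90 to -0.66) and an unadjusted p of 0.00608 (adjusted p = 0.509) in the same edgeR test. CTR2 lay near the sh-MIR100HG-2 samples, and without CTR1 the log2FC against control was -0.48.

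GCLC, the catalytic subunit of the enzyme that makes the glutathione precursor, had 31.3 and 25.6 CPM in the controls. It had 38.0 and 46.1 CPM with sh-MIR100HG-1, above both controls, and 30.02 and 33.5 CPM with sh-MIR100HG-2, which overlapped them. The log2FC of sh-MIR100HG-1 was 0.56 (SE 0.23, 95% interval 0.03 to 1.10) and an unadjusted p of 0.0413 (adjusted p = 0.714) in edgeR's quasi-likelihood test. GCLM, the modifier subunit of that enzyme, had 66.8 and 65.4 CPM in the controls, 61.1 and 81.3 CPM with sh-MIR100HG-1, and 62.5 and 70.7 CPM with sh-MIR100HG-2. Its groups overlapped, with a log2FC of 0.06 for the knockdown that turned to -0.03 when counts were scaled by library totals alone.

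GSR, which reduces oxidised glutathione, had 67.2 and 72.8 CPM in the controls, 75.6 and 57.9 CPM with sh-MIR100HG-1, and 69.7 and 66.9 CPM with sh-MIR100HG-2. GSS, glutathione synthetase, spanned 109 to 118 CPM over all 6 samples, the narrowest range of the 39 genes at 1.08-fold. Neither reached an unadjusted p under 0.05 in any comparison of edgeR's test.

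**Figure D4:**
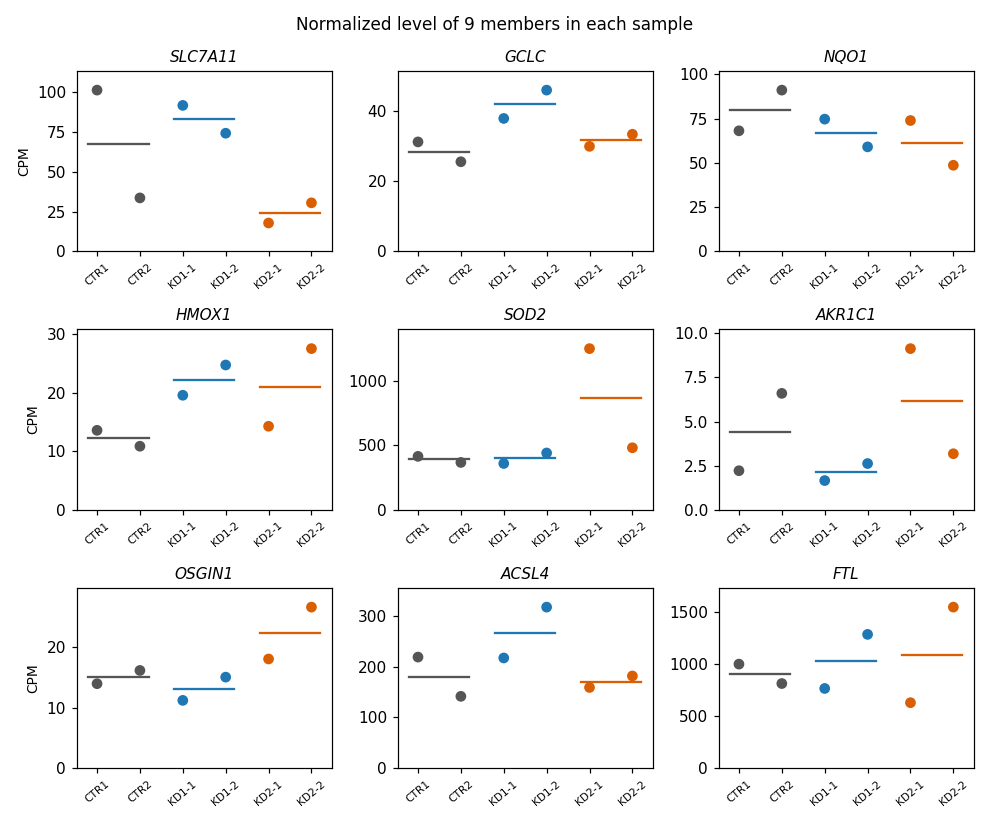
CPM of 9 genes in each sample (points) with the mean of each group (lines); gray is sh-TRC, blue sh-MIR100HG-1 and orange sh-MIR100HG-2. SLC7A11 is at 17.8 and 30.5 CPM in the sh-MIR100HG-2 samples with CTR2 close by at 33.6 CPM, SOD2 reaches 1248 CPM in KD2-1 only, and HMOX1 is higher in each knockdown sample than in either control.

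GPX4, the peroxidase that reduces lipid peroxides, had 284 and 334 CPM in the controls. It had 273 and 320 CPM with sh-MIR100HG-1 and 276 and 471 CPM with sh-MIR100HG-2. Only KD2-2 lay above the range of the controls, and the log2FC of the knockdown was 0.11 (95% interval -0.45 to 0.66). GPX1, which reduces hydrogen peroxide, ranged from 332 CPM in KD1-1 to 581 CPM in KD2-2. GSTP1, a glutathione transferase, had 217 and 307 CPM in the controls, 208 and 186 CPM with sh-MIR100HG-1, and 240 and 257 CPM with sh-MIR100HG-2. Both sh-MIR100HG-1 samples were below both controls for GPX1 and GSTP1, with log2FC of -0.35 and -0.41 whose intervals include 0. For GPX1 the samples lay close, with 360 CPM in KD1-2 and 365 CPM in CTR1. GSTM3, another transferase, ranged from 53.6 to 58.1 CPM, a 1.08-fold span.

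TXN, thioredoxin, had 362 and 314 CPM in the controls, 363 and 463 CPM with sh-MIR100HG-1, and 335 and 328 CPM with sh-MIR100HG-2. TXNRD1, the reductase that recharges it, had 441 and 381 CPM in the controls, 465 and 605 CPM with sh-MIR100HG-1, and 356 and 575 CPM with sh-MIR100HG-2. For both genes the sh-MIR100HG-1 samples were above both controls while the sh-MIR100HG-2 samples overlapped them, although for TXN in CTR1 and KD1-1 the difference was below 1 CPM. SRXN1, which repairs overoxidised peroxiredoxins, had 7.84 and 12.2 CPM in the controls, 11.1 and 11.6 CPM with sh-MIR100HG-1, and 10.96 and 14.6 CPM with sh-MIR100HG-2. Of its exons, 85.0% also belong to an annotated gene on the same strand, to which at most 1 count per sample was assigned. How reads in these shared exons were counted is not given, so the count of SRXN1 may be too low.

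The 6 peroxiredoxins, PRDX1 to PRDX6, remove peroxides with electrons from thioredoxin or glutathione. Their log2FC in the knockdown lay between -0.31 for PRDX5 and 0.24 for PRDX6. PRDX5 was at 158 and 204 CPM in the controls and at 150 and 117 CPM with sh-MIR100HG-1, below both controls. PRDX2 was at 151 and 199 CPM in the controls and at 144 and 141 CPM with sh-MIR100HG-1, also below both controls. PRDX6 was at 182 and 236 CPM in the controls and at 253 and 302 CPM with sh-MIR100HG-2, above both controls. For none of these genes did the other shRNA stand clear of the controls, and no peroxiredoxin reached an unadjusted p under 0.05 in edgeR's test.

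SOD2, the mitochondrial superoxide dismutase, had 414 and 367 CPM in the controls and 359 and 440 CPM with sh-MIR100HG-1. It had 1248 CPM in KD2-1 and 481 CPM in KD2-2. Both sh-MIR100HG-2 samples were above all others, KD2-1 far above them and KD2-2 close to KD1-2. The log2FC of sh-MIR100HG-2 was 1.15 against control (SE 0.39, 95% interval 0.25 to 2.05) and an unadjusted p of 0.0186 (adjusted p = 0.513) in edgeR's quasi-likelihood test. Without KD2-1 it was 0.30. Against sh-MIR100HG-1 the log2FC was 1.11 (SE 0.39) and 0.27 without KD2-1. Parts of the SOD2 exons overlap ACAT2 (9.75%) and WTAP (2.30%) on the opposite strand.

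SOD1, the cytosolic superoxide dismutase, ranged from 131 to 193 CPM. CAT, catalase, which breaks down hydrogen peroxide, had 53.0 and 49.6 CPM in the controls. It had 55.8 and 55.2 CPM with sh-MIR100HG-1, above both controls, and 44.2 and 46.3 CPM with sh-MIR100HG-2, below both. The log2FC of CAT between the shRNAs was -0.30 (SE 0.20, 95% interval -0.76 to 0.17).

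The pentose phosphate pathway enzymes PGD, TALDO1 and TKT, and the NADPH-producing malic enzyme ME1, had positive log2FC in the knockdown, from 0.12 to 0.30. None had an unadjusted p under 0.05 in edgeR's test. TKT, transketolase, had 298 and 409 CPM in the controls, 346 and 395 CPM with sh-MIR100HG-1, and 398 and 627 CPM with sh-MIR100HG-2. KD2-2 had the highest TKT, PGD and TALDO1 of the 6 samples. ME1 had 25.4 and 16.1 CPM in the controls, 29.6 and 21.1 CPM with sh-MIR100HG-1, and 23.0 and 17.3 CPM with sh-MIR100HG-2. KD1-1 was above both controls, and the other knockdown samples were within their range.

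HMOX1, haem oxygenase, which splits haem into biliverdin, carbon monoxide and iron, lies on chromosome 22 of GRCh37 from 35776354 to 35790207 on the plus strand. It was the 1 gene of the 39 for which each knockdown sample exceeded both controls. It had 13.6 and 10.9 CPM in the controls, 19.6 and 24.8 CPM with sh-MIR100HG-1, and 14.3 and 27.6 CPM with sh-MIR100HG-2. The sample KD2-1, at 14.3 CPM, was close to CTR1. The log2FC of the knockdown was 0.82 (SE 0.31, 95% interval 0.11 to 1.52) and an unadjusted p of 0.0282 (adjusted p = 0.615) in edgeR's quasi-likelihood test. The two-sided exact permutation test of the difference in means gave p = 0.133, where the smallest p that 4 samples against 2 allow is 0.0667. Against control, sh-MIR100HG-1 gave a log2FC of 0.86 and sh-MIR100HG-2 a log2FC of 0.77, whose interval (-0.02 to 1.56) includes 0.

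NQO1, the quinone reductase often used as a readout of NRF2, had 68.1 and 91.1 CPM in the controls, 74.7 and 59.1 CPM with sh-MIR100HG-1, and 74.0 and 48.7 CPM with sh-MIR100HG-2. Its groups overlapped, and the log2FC of the knockdown was -0.31 (95% interval -0.86 to 0.23). HMOX1 and NQO1, both classical NRF2 targets, thus had log2FC of opposite sign, and only that of HMOX1 had an interval leaving out 0. AKR1B1, an aldose reductase, ranged from 127 to 242 CPM.

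AKR1C1, which reduces ketones and steroids, had 2.22 and 6.59 CPM in the controls, 1.66 and 2.62 CPM with sh-MIR100HG-1, and 9.13 and 3.18 CPM with sh-MIR100HG-2. The sh-MIR100HG-2 samples were above the sh-MIR100HG-1 samples, and both controls lay between KD1-1 and KD2-1. Between the shRNAs its log2FC was 1.53 (SE 0.65, adjusted p = 0.521 from edgeR's quasi-likelihood test) and 0.57 without KD2-1. Reads of AKR1C1 can be shared with its near-identical paralogs, so its level is uncertain. OSGIN1, an oxidative stress induced growth inhibitor, had 13.9 and 16.1 CPM in the controls, 11.2 and 15.02 CPM with sh-MIR100HG-1, and 18.0 and 26.6 CPM with sh-MIR100HG-2. The sh-MIR100HG-2 samples were above all others, with a log2FC of 0.77 between the shRNAs (SE 0.29, adjusted p = 0.509 from edgeR's quasi-likelihood test).

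The genes of iron storage and uptake had positive log2FC in the knockdown, from 0.12 for FTH1 to 0.39 for TFRC. FTL had 997.5 and 812 CPM in the controls, 764.5 and 1282 CPM with sh-MIR100HG-1, and 628 and 1543 CPM with sh-MIR100HG-2. The replicates of each shRNA thus lay on both sides of the controls. FTH1, the ferritin heavy chain, had 172 and 208 CPM in the controls, 200 and 206 CPM with sh-MIR100HG-1, and 187 and 236 CPM with sh-MIR100HG-2. TFRC, the transferrin receptor that takes up iron, had 271 and 176 CPM in the controls, 283 and 359 CPM with sh-MIR100HG-1, and 245 and 289 CPM with sh-MIR100HG-2. All knockdown samples but KD2-1 were above both controls for TFRC. NCOA4, which delivers ferritin for breakdown, ranged from 246 to 317 CPM. Of the FTH1 exons 62.4% overlap BEST1 on the opposite strand, to which 9 to 51 counts per sample were assigned, and ferritin genes have processed pseudogenes that can share their reads.

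ACSL4, which loads polyunsaturated fatty acids into membrane lipids and so favors ferroptosis, had 219 and 141 CPM in the controls, 217 and 317 CPM with sh-MIR100HG-1, and 159 and 181 CPM with sh-MIR100HG-2. The sh-MIR100HG-2 samples were below the sh-MIR100HG-1 samples and within the range of the controls. The log2FC between the shRNAs was -0.65 (SE 0.28), with an interval that ends just short of 0 and an adjusted p of 0.526 in edgeR's quasi-likelihood test. AIFM2 (FSP1), which protects membranes through ubiquinone, had 100.5 and 96.3 CPM in the controls, 120 and 136 CPM with sh-MIR100HG-1, and 99.9 and 152 CPM with sh-MIR100HG-2. Its log2FC in the knockdown was 0.37 (95% interval -0.13 to 0.87), with KD2-1 within the range of the controls. LPCAT3, which inserts fatty acids into phospholipids, ranged from 20.9 to 26.4 CPM, and 65.6% of its exons overlap EMG1 on the opposite strand.

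Over the 18 classical NRF2 targets among the 39 genes, 14 had a positive log2FC in the knockdown, with a median of 0.13. The other 21 genes had 11 positive values and a median of 0.09. Per sample, the median of the classical targets relative to the control mean was -0.08 and 0.08 in the controls, 0.09 and 0.21 with sh-MIR100HG-1, and 0.04 and 0.36 with sh-MIR100HG-2 (log2 scale). KD2-1 was thus within the range of the controls. In 6 ATF4 target genes, which respond to amino acid shortage and stress, the same median was 0.34 and -0.34 in the controls, 0.77 and 1.32 with sh-MIR100HG-1, and -0.44 and 1.24 with sh-MIR100HG-2. For 8 genes of cell division (G2/M) that median was 0.09 and -0.09 in the controls. It was 0.02 and 0.16 with sh-MIR100HG-1, and -0.43 and -0.31 with sh-MIR100HG-2. For 8 interferon-stimulated genes it was -0.03 and 0.03 in the controls. With sh-MIR100HG-1 it was -0.53 and -0.99, and with sh-MIR100HG-2 0.18 and -0.74. The part of these gene sets in the levels of the 39 genes was not tested.

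A list of 106 other genes of these pathways, of which 102 were tested, gave 3 higher and 4 lower genes at an unadjusted p under 0.05 in the knockdown (6.86%, against 7.68% of all genes tested), and 5 higher and 4 lower between the shRNAs (8.82%, against 9.45%), with none at an adjusted p of 0.05 in edgeR's test. CHAC1, which degrades glutathione, had 29.6 and 17.7 CPM in the controls, 44.9 and 64.7 CPM with sh-MIR100HG-1, and 31.1 and 54.5 CPM with sh-MIR100HG-2. Every knockdown sample was above both controls, with a log2FC of 1.03 (SE 0.33, adjusted p = 0.545 from edgeR's quasi-likelihood test). MBOAT2, which remodels phospholipids and lowers their polyunsaturated share, had 28.4 and 31.5 CPM in the controls and 10.8 to 20.1 CPM in the knockdown, with a log2FC of -0.92 (SE 0.28, adjusted p = 0.531 from the same edgeR test). Between the shRNAs, SAT1, a polyamine acetyltransferase linked to ferroptosis, had a log2FC of -1.82 (SE 0.48), and the stress-induced factor ATF3 had a log2FC of -3.14 (SE 0.93). Both followed SLC7A11 in that CTR1 (492.5 CPM for SAT1, 267 for ATF3) was near the sh-MIR100HG-1 samples and CTR2 (150 and 26.7 CPM) near the sh-MIR100HG-2 samples. TXNIP, which inhibits thioredoxin, was higher with sh-MIR100HG-2 than with sh-MIR100HG-1 by 1.30 on the log2 scale (SE 0.35), with 422.5 and 811 CPM in the controls. By sublist, positive log2FC in the knockdown were found for 11 of 11 genes of NRF2 control (median 0.13), 12 of 22 other NRF2 targets (median 0.01) and 12 of 31 genes of glutathione use and turnover (median -0.14). They were found for 12 of 15 genes of iron handling (median 0.33), where the iron transporter SLC11A2 was at 0.49 (SE 0.19), and for 6 of 23 genes of lipid peroxidation and ferroptosis (median -0.21). Of all genes tested, 45.6% were positive. The genes of NRF2 control ran from 0.02 to 0.36, with 0 at an unadjusted p under 0.05 in edgeR's test. They were listed whatever their effect on NRF2, so their shared sign gives no direction of NRF2 activity. With each shRNA alone against control the counts differed. Genes of NRF2 control were positive for 7 of 11 with sh-MIR100HG-1 and 11 of 11 with sh-MIR100HG-2. In that order, lipid peroxidation and ferroptosis had 10 and 9 of 23, and iron handling 11 and 13 of 15. Other NRF2 targets had 8 and 13 of 22, and glutathione use and turnover 12 of 31 with each. All genes tested had 49.7% and 45.8%.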

How the data were processed

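RNA-seq of 6 samples was used, in 3 groups of 2 by the titles in the labels. The authors deposited raw counts per gene, made by mapping to GRCh37 with STAR (2.5.2a in the submitters' processing notes), GENCODE annotation and FeatureCounts, and the exon length of each gene. Strandedness, the handling of multi-mapping reads and that of reads in exons shared between genes are not given in the sources used here. Totals ranged from 43804736 to 64588388 counts, and the biological coefficient of variation common to all genes was 27.8%. The spread between samples and not counting error therefore sets the precision.

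From these counts, a gene was dropped when 3 or more samples had fewer than 5 counts, as the study's methods do (12373 dropped, 15372 tested). One model held all groups, with TMM and the quasi-likelihood test of edgeR 4.0.16 (R 4.3.3; 3 residual degrees of freedom), with Benjamini-Hochberg adjustment over all genes tested. CPM are TMM-normalized, with a pseudocount of 0.125 on the log2 scale. Replicates are separate samples by the labels, and p-values measure the spread between them. Gene symbols were found for 26966 of 27745 genes, and SOD2 was placed by its position. The test was tried on simulated counts. Alternatives were DESeq2 1.42.0, DESeq2 size factors, library totals, no filter, the likelihood ratio test, a bias-adjusted fit, separate fits, a replicate block and leaving out each sample. The 39 genes and all lists were chosen with earlier results of these data known. Genes given with values in every sample are 21 core genes and each of the 39 with an unadjusted p under 0.05. Beside these, GPX1, GSS, PRDX2, PRDX5, PRDX6, CAT and TKT were named after their values were seen. Other pathway genes were named from the 5 with the smallest p in each direction.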

Additional observations from a re-analysis of the deposited data

Results flagged for a closer look

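CAT, which encodes catalase, was above both controls in both sh-MIR100HG-1 samples (55.8 and 55.2 CPM against 53.0 and 49.6 CPM) and below both controls in both sh-MIR100HG-2 samples (44.2 and 46.3 CPM). The log2FC between the shRNAs was -0.30 (SE 0.20, adjusted p = 0.628 from edgeR's quasi-likelihood test). That every sample of an shRNA lay on its own side of the controls was not tested beyond this contrast, and both shRNAs were compared with the same controls. The share of all genes tested with such a pattern was not determined, so it is unknown whether CAT is unusual in this.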

How the results depend on the processing

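No gene of the 39 passed an adjusted p of 0.05 under the likelihood ratio test, the bias-adjusted fit, separate fits, other size factors, a replicate block or the leaving out of any sample. Without the filter on low counts, 2 passed for sh-MIR100HG-2 against control (SLC7A11, adjusted p = 6.01e-05, and SOD2, adjusted p = 0.000554) and 3 between the shRNAs (SLC7A11, SOD2 and AKR1C1), where 2.42% and 3.18% of all 21349 genes passed, against 0 with the filter. The cause was not tested. With DESeq2's Wald test 1 passed between the shRNAs (0.67% of all genes). The likelihood ratio test, under which none of the 39 passed, called 0.709% of all genes for the knockdown and 0.221% for sh-MIR100HG-1. It called 0.787% of all genes for sh-MIR100HG-2 and 0.592% between the shRNAs. Separate fits called 0.0455% of all genes between the shRNAs. The bias-adjusted fit, DESeq2's size factors and the replicate block called 0% in each comparison. At an unadjusted p under 0.05, the count without the filter was 3 for the knockdown and 4 for each shRNA against control (9.05%, 7.69% and 9.89% of all genes). With library totals in place of TMM the count for sh-MIR100HG-1 was 0 (6.51% of all genes), and the genes with all 4 knockdown samples beyond both controls were 3 (17.8% of all genes), as with DESeq2's size factors (17.5%). Library totals moved the median log2FC of all genes from -0.04 to -0.15 for sh-MIR100HG-2 against control, and turned GCLM to -0.0252.

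In a fit with a replicate block, the count at an unadjusted p under 0.05 was 5 for sh-MIR100HG-2 against control and 8 between the shRNAs, while the share of all genes was 11.9% and 13.1%, up from 8.86% and 9.45%. The numbers mark no shared batch in the labels, and the correlation of the deviations of same-numbered samples was -0.21, 0.02 and 0.50 for the 3 pairs of groups. With crossed numbers the count for sh-MIR100HG-1 was 4 (10.8% of all genes, up from 6.87%).

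Leaving out 1 sample at a time gave counts at an unadjusted p under 0.05 of 0 to 2 for the knockdown (4.41 to 10.9% of all genes), 0 to 6 for sh-MIR100HG-1 (1.99 to 10.6%), 0 to 5 for sh-MIR100HG-2 (4.01 to 12.6%) and 2 to 5 between the shRNAs (6.18 to 12.2%). It gave 1 to 16 genes with all remaining knockdown samples beyond the remaining controls, with 16 without CTR1 (40% of all genes), 9 without CTR2 (38.9%) and 7 without KD2-1 (24.3%). The log2FC of the knockdown crossed 0 on leaving out a sample for 24 of the 39 genes. The share of all genes tested for which it did so was not determined. Among the 21 core genes these were NFE2L2 (-0.15 to 0.47), KEAP1 (-0.13 to 0.34), SLC7A11 (-1.18 to 0.42), GCLM (-0.0507 to 0.16), GSR (-0.16 to 0.0367), GPX4 (-0.12 to 0.27), GSTP1 (-0.47 to 0.0294), SRXN1 (-0.0155 to 0.62), AKR1C1 (-0.86 to 0.71), FTH1 (-0.0077 to 0.26), FTL (-0.18 to 0.47), ACSL4 (-0.0367 to 0.59) and ME1 (-0.17 to 0.49), and among the other 18 they were GSS, GPX1, GSTM3, PRDX1, PRDX2, PRDX3, PRDX4, SOD1, CAT, TALDO1 and AKR1B1. The log2FC kept its sign for 8 of the core genes and 7 of the other 18. Among these were HMOX1 (0.53 to 1.01), GCLC (0.22 to 0.51), AIFM2 (0.19 to 0.50) and NQO1 (-0.51 to -0.09).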
